A study of Mus musculus with 15 samples.

Results

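Imprinted genes of fetal growth control were followed in the left ventricle of mouse hearts under pressure overload. The set held 8 genes, namely Mest, Peg3, Plagl1, Cdkn1c, Igf2, H19, Grb10 and Ndn. The set was chosen by the levels of Mest, which stood higher after aortic constriction and lower with neuregulin-1 in these same libraries, so its values are a description with no test. Of the 8 genes, 7 had a row among the 15258 genes of the files, and Igf2 was not analysed here. Of these 7, 6 were among the 11006 genes with enough reads for a test, and Plagl1 was not. The 3 groups held 5 libraries each. The TAC NRG group had transverse aortic constriction (TAC, a banding of the aortic arch against which the heart must then pump) and minipumps with neuregulin-1β, the TAC saline group had the constriction and saline pumps, and the sham saline group had a sham operation and saline pumps. All hearts came from males of the C57BL/6NRj strain and all libraries carry the same batch number. A sham group with neuregulin-1 was not analysed here, so its action on the unloaded heart cannot be read from these libraries. The labels state neither age, dose nor duration, nor that each library came from its own mouse, so p-values reflect only how far these samples spread, which may be technical.

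Imprinted genes are expressed mainly or wholly from a single parental copy, which is fixed by DNA methylation laid down in the egg or the sperm. Many act on fetal growth: several genes active on the paternal copy promote growth, and several active on the maternal copy restrain it. The genes named above are expressed together at high levels in fetal tissues and are turned down after birth, and in mice the zinc finger factor encoded by Plagl1 has been shown to act on several of the others. The 3′-end reads counted here do not tell the parental copies apart, so which allele was read was not measured.

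Promoter windows of the members with a RefSeq entry are shown because the CpG dinucleotide, the site of the methylation that marks imprinted copies, is very unevenly spread over them. Each window runs from 250 bases before to 50 bases after a transcription start in RefSeq build GRCm38.p6, an older build than the GRCm39 named in the submitters' processing notes. Entries were found for 5 members (Mest, Peg3, Ndn, Plagl1 and Grb10). The windows are printed 5′ to 3′ on the strand of the gene, with each CpG in capitals, for Mest at chr6:30737800-30738099 on the plus strand, Grb10 at chr11:12037371-12037670 on the minus strand, Ndn at chr7:62348027-62348326 on the plus strand and Peg3 at chr7:6730370-6730669 on the minus strand.
Mest: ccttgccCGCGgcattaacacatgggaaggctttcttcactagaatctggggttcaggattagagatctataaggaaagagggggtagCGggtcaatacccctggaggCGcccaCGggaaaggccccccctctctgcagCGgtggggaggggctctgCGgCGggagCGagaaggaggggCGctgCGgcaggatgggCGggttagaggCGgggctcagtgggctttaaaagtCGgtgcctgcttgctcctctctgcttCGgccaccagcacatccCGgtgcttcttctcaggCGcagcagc
Grb10: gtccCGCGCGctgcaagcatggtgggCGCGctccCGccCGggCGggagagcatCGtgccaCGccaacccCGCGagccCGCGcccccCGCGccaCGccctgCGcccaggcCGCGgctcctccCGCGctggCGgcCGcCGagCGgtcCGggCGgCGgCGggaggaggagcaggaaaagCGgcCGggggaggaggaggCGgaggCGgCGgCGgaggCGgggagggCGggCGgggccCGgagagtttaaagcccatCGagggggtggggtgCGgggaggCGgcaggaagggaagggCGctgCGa
Ndn: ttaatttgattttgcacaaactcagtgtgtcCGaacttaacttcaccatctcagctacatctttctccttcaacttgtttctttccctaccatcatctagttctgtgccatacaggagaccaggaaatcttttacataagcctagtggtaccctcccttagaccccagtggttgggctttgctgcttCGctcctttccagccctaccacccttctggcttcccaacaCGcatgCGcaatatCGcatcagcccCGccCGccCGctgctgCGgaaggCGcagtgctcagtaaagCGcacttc
Peg3: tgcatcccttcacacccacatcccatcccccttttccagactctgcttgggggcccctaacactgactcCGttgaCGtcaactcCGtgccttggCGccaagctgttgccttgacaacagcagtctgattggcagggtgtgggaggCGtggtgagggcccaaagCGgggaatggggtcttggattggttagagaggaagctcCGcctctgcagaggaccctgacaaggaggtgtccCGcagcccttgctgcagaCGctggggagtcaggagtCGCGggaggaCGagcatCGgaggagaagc
The Grb10 window printed held 45 CpG, a number reached by 1.93% of the 32851 promoters in the table, and a second Grb10 start, at chr11:12027922-12028221 on the minus strand, had 9 CpG, reached by 45.8%. The Mest window printed held 17 CpG, reached by 31.4% of promoters, Peg3 held 13 and Ndn held 11. A start of Mest further upstream, at chr6:30733256-30733555, had 8 CpG, reached by 48.7%, and the Plagl1 window had 26. DNA methylation was not measured, and the number of CpG in a window does not tell whether that window carries the methylation of an imprint.

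The libraries held 2.02 to 5.62 M reads (mean 3.33 ± 1.45 M in TAC NRG, 3.42 ± 0.41 M in TAC saline and 3.60 ± 0.55 M in sham saline, SD, n = 5 each). The smallest, TAC NRG 4 and 5 with 2.02 and 2.13 M reads, also had the largest haemoglobin shares of all 15, at 0.366% and 0.350% of reads. These 2 libraries were the most alike in TAC NRG, with a chi-square per degree of freedom of 2.42 between them and 7.52 to 12.1 against the rest. Pairs among TAC NRG 1 to 3 had 2.98 to 9.38. TAC saline 1 and 5 likewise had 2.42 between them and 4.27 to 7.245 against the other TAC saline libraries. Pairs among TAC saline 2 to 4 had 3.35 to 5.19. Mitochondrial transcripts took 25.8 ± 2.35% of reads in TAC NRG, 27.7 ± 1.62% in TAC saline and 31.1 ± 0.47% in sham saline. Levels are given as scaled counts per M reads (CPM), with the library factor of the deposited values. Summed over 8 cardiomyocyte genes, they reached 64100 to 79416 CPM in TAC NRG, 65354 to 77266 CPM in TAC saline and 70172 to 76601 CPM in sham saline. A sum of 2 atrial genes reached 5.44 CPM at most.

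Mest encodes a protein of the alpha/beta hydrolase fold and is expressed from the paternal copy. It stood at 14.5, 13.8, 8.53, 20.7 and 17.5 CPM in TAC NRG libraries 1 to 5, at 58.0, 29.1, 23.7, 38.5 and 79.7 CPM in TAC saline libraries 1 to 5, and at 14.8, 13.3, 12.6, 13.6 and 9.13 CPM in sham saline libraries 1 to 5. Every TAC saline library lay above every library of the other groups, and the TAC NRG and sham saline libraries overlapped. Of all 11006 genes, 3.06% had no overlap between TAC NRG and TAC saline and 8.40% had none between TAC saline and sham saline, and nothing is read from this since these comparisons chose the set. The means were 15 ± 4.52 CPM in TAC NRG, 45.8 ± 23.0 CPM in TAC saline and 12.7 ± 2.14 CPM in sham saline (SD, n = 5 each). On the log2 scale TAC saline stood 1.73 ± 0.25 (SE) above sham saline, a 3.31-fold difference and the 64th highest among the 11006 genes. TAC NRG differed from TAC saline by -1.53 ± 0.25, a ratio of 0.347 and the 7th lowest of all, and from sham saline by 0.20 ± 0.25. The spread within TAC saline was wide, with a coefficient of variation of 50.2%, against 30.1% in TAC NRG and 16.9% in sham saline. The counts behind these levels were 33 to 79 reads a library in TAC NRG, 68 to 331 in TAC saline and 30 to 66 in sham saline.

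**Figure D1:**
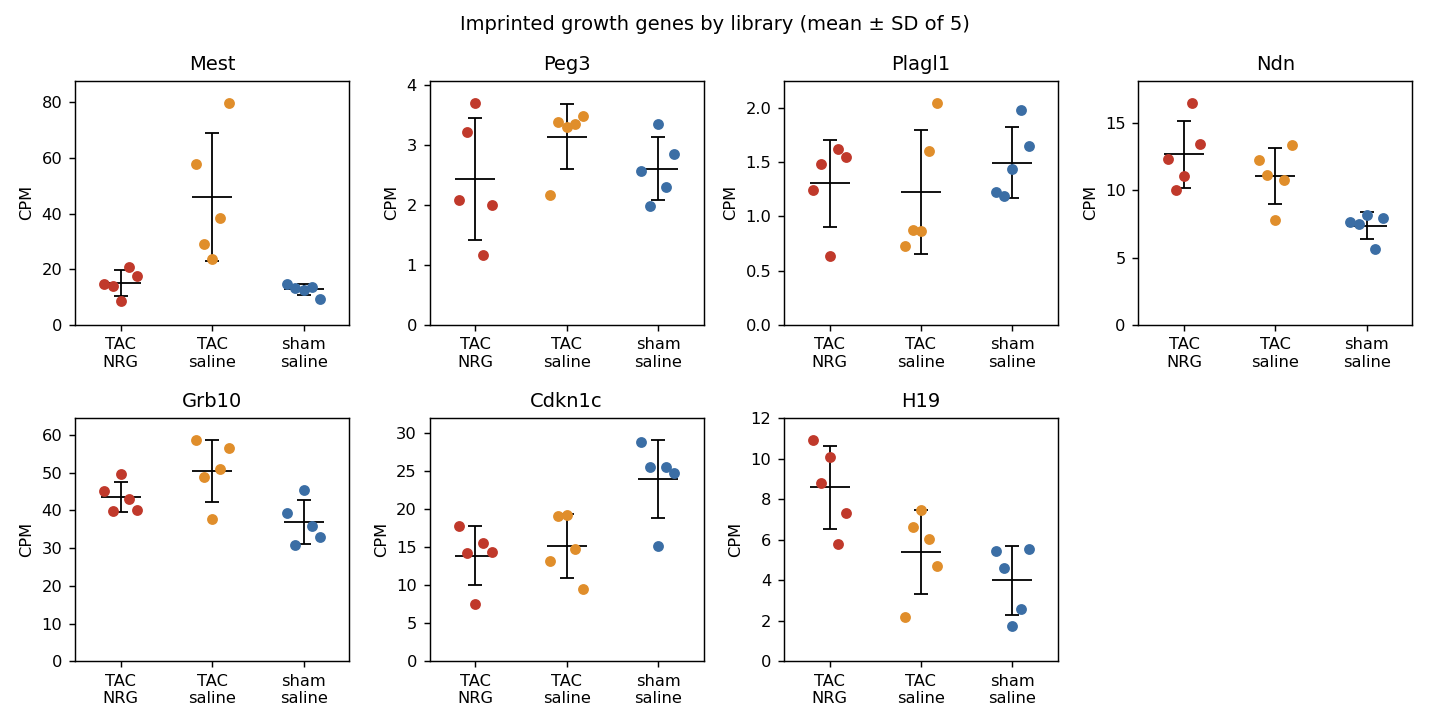
Level of each of the 7 genes in scaled counts per M reads (CPM, linear axis from 0) in TAC NRG, TAC saline and sham saline. Points are libraries, and the bar and whiskers are the mean and SD of 5. Mest in TAC saline (23.7 to 79.7 CPM) stands clear of both other groups, whereas Peg3 and Plagl1 overlap across all groups.

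Mest and its neighbour Copg2, a coat protein subunit gene on the opposite strand, overlap by 912 bases at their ends in the GENCODE annotation of GRCm38. Whether the counting used strand is not given in the sources used here, so reads from the overlap cannot be told apart. Copg2 averaged 23.1 ± 2.69 CPM in TAC NRG, 22.8 ± 3.19 CPM in TAC saline and 23.5 ± 2.38 CPM in sham saline (SD, n = 5 each). It differed by -0.05 ± 0.12 on the log2 scale between TAC saline and sham saline (limma adjusted p = 0.858) and by 0.02 ± 0.12 between TAC NRG and TAC saline (limma adjusted p = 0.950). Cep41, a further neighbour, had at most 3.67 CPM and was not tested. The microRNA gene Mir335 lies within Mest and was not analysed here. Likewise H19 contains Mir675, and Cdkn1c and Ndn each overlap an antisense or noncoding transcript on the other strand.

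Ndn and Cdkn1c differed from sham saline in both constricted groups, Grb10 in TAC saline and H19 in TAC NRG. Against sham saline, 3 of the 5 tested genes other than Mest changed in TAC saline (Grb10 and Ndn rose, Cdkn1c fell), where 10.7% of the 11006 genes changed (6.45% rose and 4.24% fell). In TAC NRG 3 of the 5 changed against sham saline (H19 and Ndn rose, Cdkn1c fell), where 16.1% of all genes changed (8.74% rose and 7.40% fell). Between TAC NRG and TAC saline 0 of the 5 passed in limma at an adjusted p of 0.05, and 1, H19, had an unadjusted p under 0.05. Of all genes, 1.30% passed at the adjusted p and 15.4% at the unadjusted p. The set was chosen with these results known, so no test of the set is given. Of all genes called in TAC saline, 60.3% were higher, and 84.9% were with total reads as the only scaling, which moved the median of all genes to 0.10. For TAC NRG against sham saline these shares were 54.2% and 75.8%. Between TAC NRG and TAC saline 51.7% of called genes were higher, and 32.4% were when mitochondrial genes were left out of the scaling. None of these scalings changed the sign of a member.

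Ndn encodes necdin, a MAGE family protein expressed from the paternal copy that restrains proliferation. It stood at 12.3, 10.003, 11.1, 16.5 and 13.5 CPM in TAC NRG, at 12.3, 11.1, 7.79, 10.8 and 13.3 CPM in TAC saline and at 7.67, 7.52, 8.13, 5.64 and 7.93 CPM in sham saline. All TAC NRG libraries lay above all sham saline libraries, while 1 TAC saline library, number 3, lay within the sham range. Ndn rose 1.71-fold in TAC NRG against sham saline (log2 0.77 ± 0.18, limma adjusted p = 0.00409), where 11.7% of all genes had groups that did not overlap. In TAC saline it rose by 0.57 ± 0.18 on the log2 scale over sham saline (limma adjusted p = 0.0398). TAC NRG and TAC saline differed by 0.20 ± 0.18 (limma adjusted p = 0.645). The TAC saline call was lost when any 1 of sham saline 1 to 5 or of TAC saline 1, 2, 4 and 5 was left out (limma adjusted p 0.0509 to 0.131) and with no filter beyond 1 read (0.0549), and the TAC NRG call was just lost without TAC NRG 4 and 5 (limma adjusted p = 0.0501).

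Grb10 encodes an adaptor that binds the insulin and IGF1 receptors and restrains growth, and is expressed from the maternal copy in most tissues other than neurons. Its level was 45.2, 39.8, 49.5, 43.0 and 40.0 CPM in TAC NRG, 58.6, 48.9, 37.6, 50.8 and 56.4 CPM in TAC saline and 39.2, 30.7, 45.5, 35.9 and 33.1 CPM in sham saline. TAC saline 3 lay within the sham range, and the other TAC saline libraries lay above it. Grb10 rose by 0.45 ± 0.12 on the log2 scale in TAC saline over sham saline (limma adjusted p = 0.0180). TAC NRG differed by 0.25 ± 0.12 from sham saline (limma adjusted p = 0.179) and by -0.20 ± 0.12 from TAC saline (limma adjusted p = 0.444). The call was lost without sham saline 2 (limma adjusted p = 0.0574), TAC saline 1 (0.0671) or TAC saline 5 (0.0664), and with no trend of spread (0.0562).

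Cdkn1c encodes p57, a maternally expressed inhibitor of cyclin-dependent kinases. The libraries gave 17.8, 14.2, 7.51, 15.6 and 14.4 CPM in TAC NRG, 13.2, 19.1, 19.2, 14.7 and 9.50 CPM in TAC saline and 28.8, 25.5, 15.2, 25.5 and 24.7 CPM in sham saline. Only sham saline 3, at 15.2 CPM, came within reach of the constricted groups, and the other sham libraries lay above all of them. Cdkn1c fell by 0.81 ± 0.22 on the log2 scale in TAC NRG against sham saline (limma adjusted p = 0.0122) and by 0.67 ± 0.22 in TAC saline (limma adjusted p = 0.0461). TAC NRG and TAC saline differed by -0.13 ± 0.22 (limma adjusted p = 0.815). The TAC saline call was lost when any 1 of sham saline 1, 2, 4 and 5, TAC saline 1, 4 and 5 and TAC NRG 2 was left out, and under scaling by total reads alone, the same without mitochondrial genes, a robust spread or no trend of spread (limma adjusted p 0.0526 to 0.167 over these), whereas the TAC NRG call held in all 27 alternatives (limma adjusted p 0.00422 to 0.0465).

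H19 is a maternally expressed noncoding RNA transcribed next to Igf2. It was at 10.9, 8.79, 10.1, 5.80 and 7.29 CPM in TAC NRG, at 2.17, 6.62, 7.45, 6.06 and 4.69 CPM in TAC saline and at 5.45, 4.62, 1.75, 2.59 and 5.54 CPM in sham saline. The TAC NRG libraries all lay above the sham saline libraries, and TAC saline overlapped both. Between TAC NRG and sham saline 11.7% of all genes had groups that did not overlap. H19 rose 2.30-fold in TAC NRG against sham saline (log2 1.20 ± 0.33, limma adjusted p = 0.0152). TAC NRG and TAC saline differed by 0.75 ± 0.33 (limma adjusted p = 0.284), and TAC saline and sham saline by 0.45 ± 0.33 (limma adjusted p = 0.453). The counts were low, with 12 to 50 reads a library in TAC NRG, 7 to 26 in TAC saline and 5 to 24 in sham saline, and the call was lost without sham saline 3 (limma adjusted p = 0.0561).

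Peg3 and Plagl1, both zinc finger genes expressed from the paternal copy, gave few reads. Peg3 stood at 2.07, 3.22, 3.69, 1.16 and 1.99 CPM in TAC NRG, at 2.17, 3.37, 3.29, 3.34 and 3.49 CPM in TAC saline and at 2.56, 1.98, 3.35, 2.29 and 2.84 CPM in sham saline. The 3 groups overlapped, with log2 differences of -0.46 ± 0.34 for TAC NRG against TAC saline (limma adjusted p = 0.555), -0.19 ± 0.34 for TAC NRG against sham saline (limma adjusted p = 0.767) and 0.27 ± 0.34 for TAC saline against sham saline (limma adjusted p = 0.699). Plagl1 stood at 1.31 ± 0.40 CPM in TAC NRG, 1.22 ± 0.57 CPM in TAC saline and 1.49 ± 0.33 CPM in sham saline (SD, n = 5 each), from 2 to 8 reads a library. It had too few reads for the test, so no difference between groups is read from these means.

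**Figure D2:**
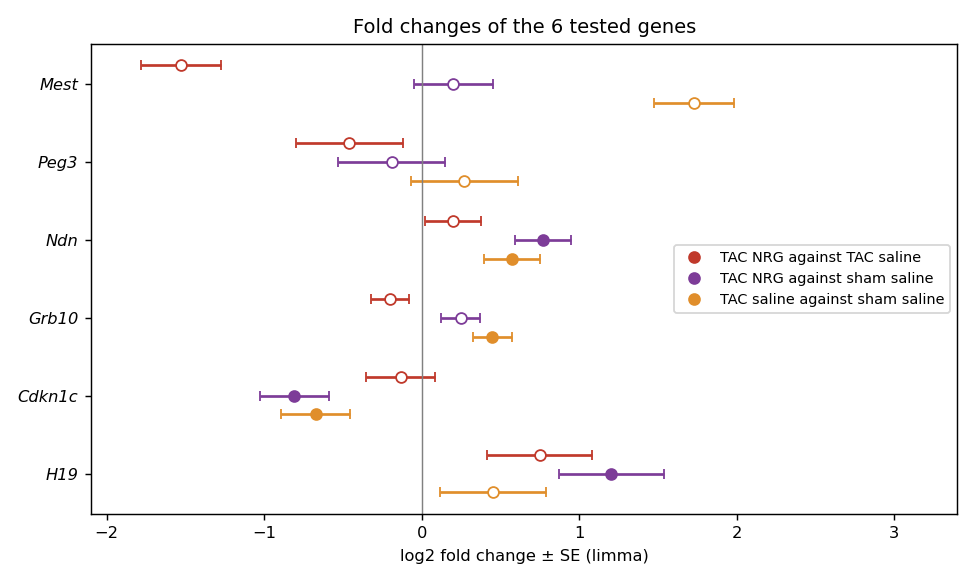
Log2 fold change of the 6 tested genes with its SE (horizontal axis, limma) in 3 comparisons; filled points passed an adjusted p of 0.05 and hollow points did not, except that Mest is drawn hollow as a description without a test. Mest stands furthest from 0 (1.73 and -1.53), and Cdkn1c lies below 0 in both comparisons with sham saline.

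Within TAC saline the libraries were not alike. Libraries 1 and 5 had the highest Mest (58.0 and 79.7 CPM), Grb10 and Ndn and the lowest Cdkn1c (13.2 and 9.50 CPM). The same 2 libraries had the highest summed levels of 8 cell cycle genes, 108 and 125 CPM, against 35.3 to 55.4 CPM in the other TAC saline libraries. Their sums over 11 markers of sprouting endothelium were 167 and 168 CPM, against 114 to 134 CPM in the others. The fibroblast and macrophage sums were instead highest in TAC saline 4, at 2819 and 455 CPM. In TAC saline 1 and 5 the fibroblast sums were 2206 and 2506 CPM, and the macrophage sums were 371 and 328 CPM. The sprouting markers did not move as 1 list. Of the 7 tested, Nid2 and Mcam rose in TAC saline over sham saline, and they hold much of the sum, with 28.7 and 57.0 CPM on average in TAC saline. Apln, Pgf, Angpt2 and Dll4 had log2 values of -0.16, -0.11, -0.30 and -0.32 there, none past the threshold, and the median of the 7 was -0.11. Apln fell in TAC NRG against both other groups and Dll4 fell in TAC NRG against sham saline. Over all libraries the cell cycle sum was 22.5 to 48.1 CPM in TAC NRG, 35.3 to 125 CPM in TAC saline and 13.7 to 20.1 CPM in sham saline. Of the 8 genes, 1 fell (Cenpf) in TAC NRG against TAC saline, with a list median of -1.14 on the log2 scale, 6 rose and Cenpf fell in TAC NRG against sham saline, and 7 rose in TAC saline over sham saline. The shares of all genes called in these comparisons were 1.30%, 16.1% and 10.7%. The 7 genes that rose in TAC saline averaged only 0.57 (Ccnb1) to 2.08 CPM (Mki67) in sham saline. That is under the 2.95 reads per M of the filter, so they entered the test through constricted libraries, where they were high. The counts of risen cell cycle genes are therefore a description. Of 12 endothelial markers, 0 passed in TAC saline against sham saline and Cdh5 fell in TAC NRG against TAC saline, with sums of 735 to 846 CPM in TAC NRG, 856 to 979 CPM in TAC saline and 785 to 909 CPM in sham saline. Of 12 fibroblast markers, 9 rose and Gsn fell in TAC saline against sham saline and 0 passed in TAC NRG against TAC saline, with sums of 1980 to 3414 CPM in TAC NRG, 1703 to 2819 CPM in TAC saline and 1383 to 1638 CPM in sham saline. Of 8 macrophage markers, 7 rose in TAC saline over sham saline, 2 rose in TAC NRG over sham saline and 0 passed in TAC NRG against TAC saline, with sums of 236 to 413 CPM in TAC NRG, 293 to 455 CPM in TAC saline and 219 to 317 CPM in sham saline. Of 9 mural cell markers, Cspg4 rose and Abcc9 fell in TAC saline against sham saline, 3 rose and 2 fell in TAC NRG against sham saline and 0 passed in TAC NRG against TAC saline, with sums of 626 to 770 CPM in TAC NRG, 642 to 818 CPM in TAC saline and 666 to 771 CPM in sham saline. All 5 red cell genes passed as higher in TAC NRG against both other groups, but their sums reached 3487 and 3339 CPM in TAC NRG 4 and 5 and 1702 to 2113 CPM in the other TAC NRG libraries, against 980 to 1473 CPM in TAC saline and 904 to 2221 CPM in sham saline, so that TAC NRG 1 to 3 lay within the sham range. No marker with a row was at 0 in all libraries. The part of these cell types in the levels of the imprinted genes was not tested, and in whole tissue fewer cells of a type and less RNA per cell cannot be told apart.

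**Figure D3:**
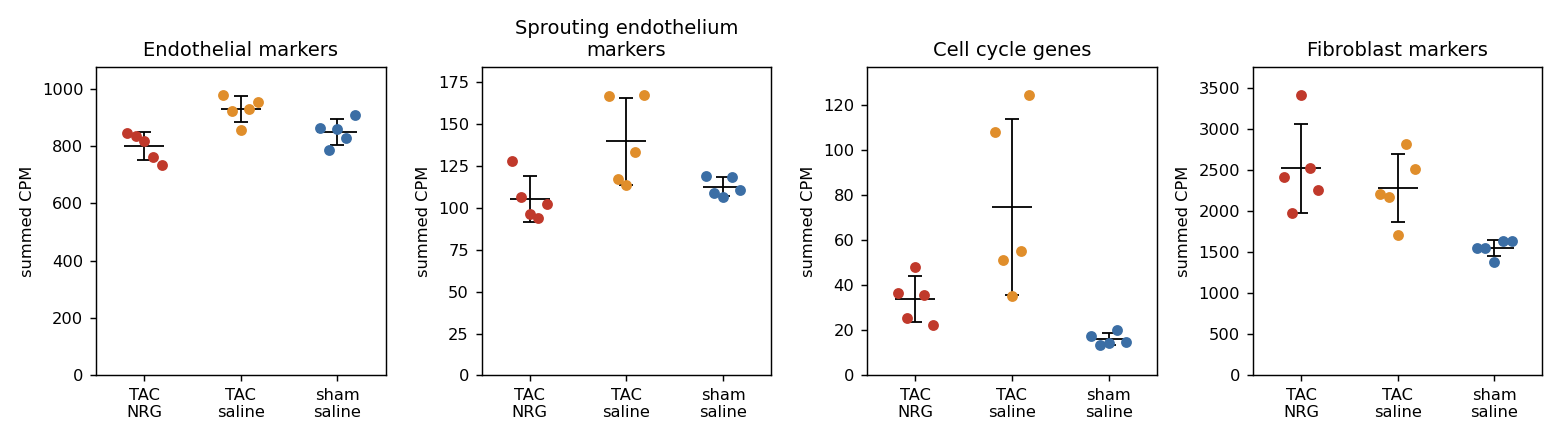
Summed level of 4 marker lists in scaled counts per M reads (CPM, linear axes from 0) in TAC NRG, TAC saline and sham saline. Points are libraries, and the bar and whiskers are the mean and SD of 5. The endothelial sums of TAC NRG lie below those of TAC saline, and TAC saline 1 and 5 stand apart in the sums of sprouting endothelium (167 and 168 CPM) and of the cell cycle (108 and 125 CPM).

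The genes whose log2 values followed Mest most closely over the 15 libraries, given as a description, were Cav1 (r = 0.87), a coat protein of caveolae, Tmpo (0.87), a nuclear lamina protein, Xaf1 (0.87), an interferon-induced gene, Cdh5 (0.87), the cadherin of endothelial junctions, Ly6e (0.85), Fscn1 (0.85), an actin bundling protein, Nrep (0.84) and Fabp5 (0.84), a fatty acid binding protein. Cav1 averaged 226 ± 18.1 CPM in TAC NRG, 311 ± 34.4 CPM in TAC saline and 252 ± 19.9 CPM in sham saline, and Fabp5 averaged 47.8 ± 4.17 CPM in TAC NRG, 79.6 ± 24.1 CPM in TAC saline and 48.1 ± 5.71 CPM in sham saline (SD, n = 5 each). All 15 points share the 3 group means and the same scaling. With deviations from the group means, r was 0.83 for Cdh5, 0.79 for Cav1 and 0.46 for Fscn1, and without TAC saline 1 and 5 it was 0.67 for Cdh5, 0.74 for Cav1 and 0.61 for Fscn1. Only 2 of the 8 names were among the top 8 by deviations from the group means, and 1 was by Spearman rank. Running opposite to Mest were Orc4 (r = -0.86), Stxbp3 (-0.84), Mtfr1l (-0.83) and Pim3 (-0.82). Among the members, r with Mest was 0.68 for Grb10, 0.45 for Ndn, 0.07 for Peg3, -0.22 for H19 and -0.32 for Cdkn1c.

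**Figure D4:**
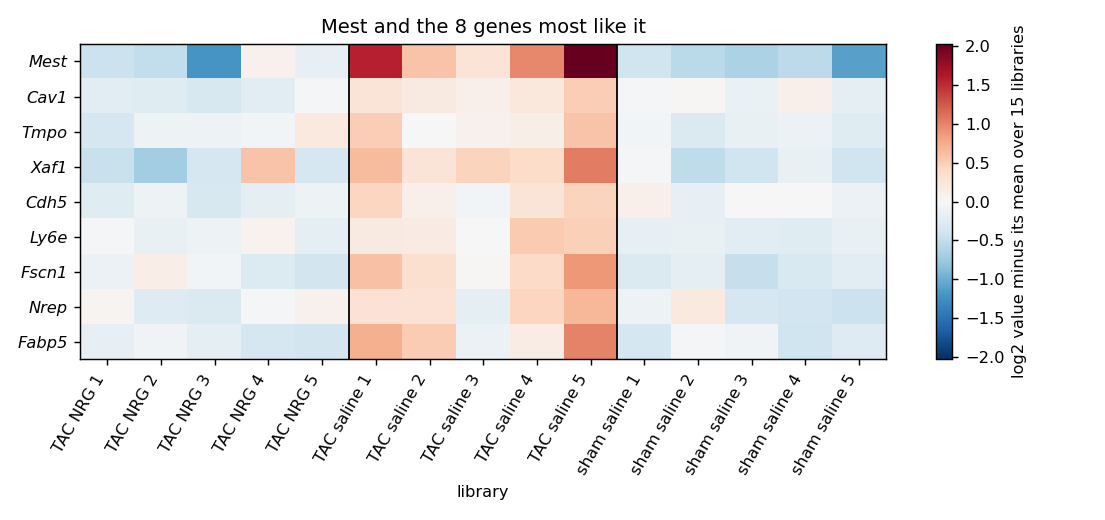
Deposited log2 level minus its mean over the 15 libraries (colour) for Mest and the 8 genes with the highest Pearson r to it, in TAC NRG, TAC saline and sham saline libraries (columns). TAC saline 5 has the highest value in 8 of the 9 rows, Ly6e being the exception.

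Beyond the members, 65 other imprinted genes were listed, of which 46 had a row and 33 were tested. Whether the listed genes are imprinted in the ventricle was not measured, so the counts below are of listed genes only. In TAC saline against sham saline 1 rose and 1 fell, which is 6.06% of the 33 beside 10.7% of all genes, and the median log2 fold change was 0.01 beside -0.01 for all genes. Slc38a4, a paternally expressed amino acid transporter, rose with 9.25 ± 2.69 CPM in TAC saline and 5.71 ± 1.08 CPM in sham saline (log2 0.67 ± 0.21, limma adjusted p = 0.0440). Snrpn, a spliceosomal protein gene whose transcript also carries the Snurf reading frame, fell with 25.7 ± 2.46 CPM in TAC saline and 38.9 ± 2.46 CPM in sham saline (log2 -0.60 ± 0.10, limma adjusted p = 0.000306). Its groups did not overlap, as was so for 8.40% of all genes. In TAC NRG against TAC saline 0 of the 33 passed, beside 1.30% of all genes, with log2 values between -1.10 (Slc22a3) and 0.42 (Asb4). In TAC NRG against sham saline 3 rose and 3 fell, or 18.2% beside 16.1% of all genes. Slc38a4 (log2 0.68), Osbpl5 (0.50), an oxysterol binding protein, and Dcn (0.31), the proteoglycan decorin, rose, while Slc22a3 (-1.40), an organic cation transporter, Ppp1r9a (-0.66) and Snrpn (-0.60) fell (limma adjusted p 0.000162 to 0.0431 over the 6).

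**Figure D5:**
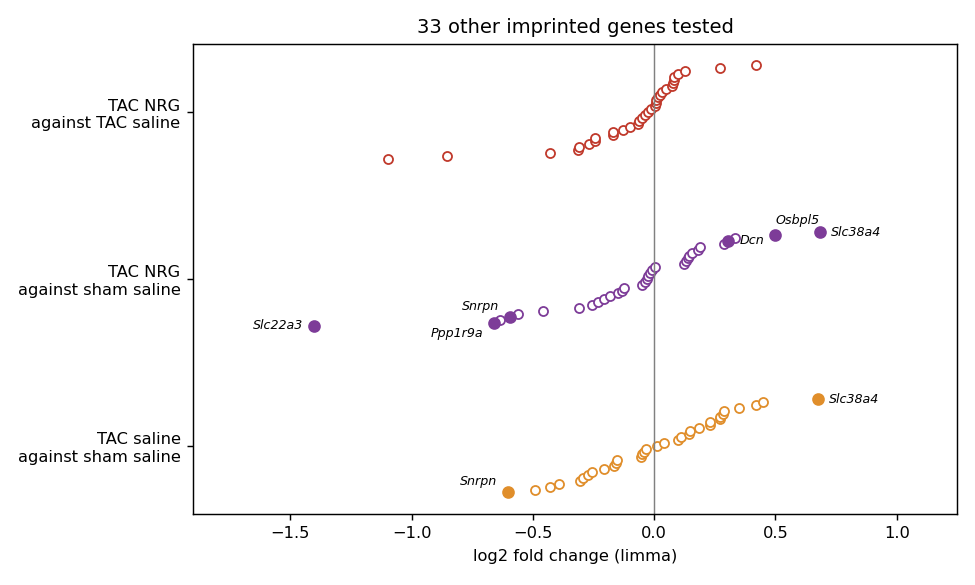
Log2 fold change (horizontal axis, limma) of the 33 other imprinted genes tested, in order of size within each of 3 comparisons; filled, named points passed an adjusted p of 0.05. In TAC NRG against TAC saline none is filled, and Snrpn and Slc38a4 are filled in both comparisons with sham saline.

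The insulin-like growth factor system, on which Grb10 and Igf2 act, was read from 13 tested genes. The test was passed by 0 of the 13 in TAC NRG against TAC saline, 5 in TAC NRG against sham saline and 4 in TAC saline against sham saline, beside 1.30%, 16.1% and 10.7% of all genes. At 1.30%, a count of 0 among 13 sets the list apart in no way. In TAC saline against sham saline Igf1, the ligand, rose by 0.58 ± 0.18 on the log2 scale, and the binding proteins Igfbp4 (0.37 ± 0.11) and Igfbp7 (0.84 ± 0.12) rose as well, while Grb14, a relative of Grb10, fell by 0.30 ± 0.09 (limma adjusted p 4.96e-05 to 0.0398 over the 4). Igf1 stood at 41.7 ± 12.7 CPM in TAC NRG, 34.9 ± 8.13 CPM in TAC saline and 23.2 ± 5.03 CPM in sham saline (SD, n = 5 each). In TAC NRG against sham saline the same 3 rose (Igf1 by 0.83, Igfbp4 by 0.59 and Igfbp7 by 0.90) and Igfbp3 and Grb14 fell, by 0.43 and 0.36. In TAC NRG against TAC saline Igf1r, the receptor, had -0.59 ± 0.25 (limma adjusted p = 0.259). Of 4 other inhibitors of cyclin-dependent kinases tested, Cdkn1a, which encodes p21, rose by 1.19 ± 0.25 in TAC NRG and by 0.95 ± 0.25 in TAC saline over sham saline (limma adjusted p 0.00196 and 0.0165), the opposite direction to Cdkn1c.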

How the data were processed

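RNA of 15 left ventricles was extracted with Tri Reagent and read as 3′-end BRB-seq libraries, per the labels' protocols. The deposited values are log2 values per gene. They equal the log2 of reads plus 0.5 times a factor for each library, and 98.9 to 99.5% of them gave back whole reads within 0.05. The build is GRCm39 per the submitters' processing notes. Neither aligner nor counter is given in the sources used here. CPM in the text is 2 to the power of the deposited value, divided by 1000. It is a scaled value, since the library factor does not follow total reads alone and the 0.5 reads are included. For example, 331 reads of Mest among 3.64 M reads in TAC saline 5 gave 79.7 CPM. Cep41 with 0 reads in TAC NRG 4 gave 0.232 CPM. Marker sums use the same factor without the 0.5 reads.

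Genes were kept with 2.95 reads per M, which is 10 reads at the median depth, in 5 or more libraries, and with 15 reads over all libraries. That left 11006 genes and set 4252 aside. All 15 libraries were fitted together with limma 3.58.1 (R 4.3.3) on the deposited log2 values, letting the spread follow the mean level, with two-sided tests and Benjamini-Hochberg adjustment over all genes tested at 0.05. Tables were handled in Python 3.11.15 with pandas 2.3.3. The fit was tested on simulated reads with the same spread for every gene and independent libraries. That setting is simpler than these libraries, so the check gives no error rate for them. Every library differed from the others of its group by more than sampling noise (chi-square per degree of freedom 2.27 or more). The genes named by rule are the members, every gene past the threshold on the lists of other imprinted genes, the IGF system, fetal growth and kinase inhibitors, and the 8 genes most like and 4 most unlike Mest by Pearson r. Cell markers are given as counts and sums. Single markers, Igf1r, Asb4 and Mycn were named after their values were seen. The members and lists were chosen with earlier results of these data known. Other scalings, filters, offsets and spreads, a replicate block, and fits without each library were tried.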

Additional observations from a re-analysis of the deposited data

Results flagged for a closer look

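Of 21 gene and group combinations examined for a library far from the rest, 2 stood out, where chance gives about 1 in 20. Peg3 stood at 2.17 CPM in TAC saline 1, against 3.29 to 3.49 CPM in the other TAC saline libraries. Ndn stood at 5.64 CPM in sham saline 4, against 7.52 to 8.13 CPM in the other sham saline libraries, and without that library the log2 difference of TAC saline from sham saline was 0.48 (limma adjusted p = 0.104).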

How the results depend on the processing

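Over 27 alternatives the log2 value of Mest ranged from -1.79 to -1.29 for TAC NRG against TAC saline and from 1.49 to 1.93 for TAC saline against sham saline. With no trend of spread, 40 genes passed for TAC NRG against TAC saline and 725 for TAC saline against sham saline, where 1 member was called. For TAC NRG against TAC saline, 77 passed with only the 2 groups fitted and 39 without TAC NRG 4 and 5. Leaving out 1 library gave 58 (without TAC NRG 4) to 229 (without TAC NRG 2) genes for TAC NRG against TAC saline, with 77 without TAC NRG 5 and 78, 92 and 93 without TAC saline 1, 4 and 5. For TAC saline against sham saline it gave 634 (without TAC saline 5) to 1492 genes, 707 without TAC saline 1, and 0 to 3 members. Signs turned for values that had passed no test: Cdkn1c for TAC NRG against TAC saline ranged from -0.29 to 0.073 with 1 library left out, Peg3 for TAC NRG against sham saline from -0.37 to 0.047, and without TAC NRG 4 and 5 Peg3 was 0.18 and Mest -0.065 against sham saline. The causes were not tested. Libraries of the same number did not vary together (r -0.25 to 0.08), so the number is only a name; with it as a replicate block 111, 1643 and 1044 genes passed for TAC NRG against TAC saline, TAC NRG against sham saline and TAC saline against sham saline, and Ndn in TAC saline had a limma adjusted p of 0.0558. Depth limits Plagl1, Peg3 and H19 most.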

Other observations

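Genes of fetal growth and proliferation outside the imprinted set were sparse in these hearts, with 8 of 15 listed genes tested. E2f1, a transcription factor of the cell cycle, rose in TAC saline to 4.11 ± 2.52 CPM, against 0.90 ± 0.29 CPM in sham saline (SD, n = 5 each, limma adjusted p = 0.0123). This sham level lies under the 2.95 reads per M of the filter. E2f1 thus entered the test only through constricted libraries, where it was high, and its call is a description. Ccnd1, cyclin D1, rose to 177 ± 27.5 CPM in TAC saline, against 106 ± 13.3 CPM in sham saline (limma adjusted p = 0.000389). In TAC NRG Sox4, a developmental transcription factor, fell to 26.9 ± 4.60 CPM, against 45.9 ± 13.7 CPM in sham saline (limma adjusted p = 0.00839). Against sham saline 2 of the 8, E2f1 and Ccnd1, passed in TAC saline and 1 in TAC NRG, beside 10.7% and 16.1% of all genes. Since it includes E2f1, the count for TAC saline is a description too. In TAC NRG against TAC saline 0 of the 8 passed in limma, beside 1.30% of all genes. The median log2 value there was -0.41 beside -0.01 for all genes. Mycn and Ccnd1 had -1.11 ± 0.33 and -0.44 ± 0.12 (limma adjusted p 0.0939 and 0.0737), and the groups overlapped for both. Mycn averaged 8.2 ± 6.4 CPM in TAC NRG and 14.4 ± 2.8 CPM in TAC saline.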
